A study of Mus musculus with 6 samples.

Results

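The 9 genes described here encode transient receptor potential (TRP) channels of sensory neurons: Trpv1, Trpv2, Trpv4, Trpa1, Trpm8, Trpm3, Trpm2, Trpm4 and Trpc5. They were taken by symbol from tables that listed 55809 genes, and all 9 were found and passed the filter on low counts that left 20146 genes for testing. RNA came from dorsal root ganglia, the clusters of sensory neuron cell bodies and glia beside the spinal cord, of 8-week-old C57BL6J mice. The prenatal stress group was 3 pools of ganglia from offspring whose dams had been restrained under bright light 3 times daily, for 30 min a session, in late gestation (embryonic days 13 to 18 in the protocol label, with slightly later days in the series design). The control group was 3 pools from offspring of dams left alone. Each pool held 3 mice, the labels give no transgene or mutation, the sex and litter of a pool are not given, and both sexes were used per the labels. The protocol label gives 3 mice per group and the series design gives 9. Because litters are not given, the p-values measure the spread between pools only.

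TRP channels are tetrameric cation channels that open to heat, cold, irritants, lipids, calcium or mechanical and osmotic stimuli, and let sodium and calcium into the cell. In sensory ganglia they turn temperature and irritants into electrical signals: TRPV1 answers to noxious heat, acid and capsaicin, TRPA1 to reactive irritants such as mustard oil, TRPM8 to cold and menthol, and TRPM3 to heat and the steroid pregnenolone sulfate. TRPV1 and TRPA1 are also known as channels through which itch signals are passed on in sensory neurons.

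The single comparison was prenatal stress against control. By edgeR's test 0 of the 9 channels passed, and 1 (Trpv1, lower) passed with DESeq2. The largest differences seen were a lower level of the heat channel Trpv1 and a higher level of the sparse channel Trpc5. Differences are log2 fold changes with their standard error (SE), positive where the stress pools were higher, from edgeR's quasi-likelihood test with Benjamini-Hochberg adjustment over all genes tested and a threshold of 0.05. Of all genes, 26 passed (0.129%), 17 higher (0.0844%) and 9 lower (0.0447%) in stress pools. By unadjusted p under 0.05, 2 of the 9 channels counted (Trpv1 and Trpc5), against 11.1% of all genes. Deviations from the group mean correlated at 0.17 to 0.40 between pools of the same number and at -0.33 to 0.14 between the others. The sample labels name no pairing, so a pairing by number rests on these same data. With the pool number as a block in the edgeR fit 3 of the 9 counted (Trpv1, Trpm8 and Trpc5), against 12.1% of all genes. None passed the adjusted test. The stress and control pools did not overlap for the same 2 channels, against 18.1% of all genes. The median log2 fold change was -0.02 over the 9 channels, of which 5 were below 0, and 0.01 over all genes. Every channel total and share below is of deposited gene counts, and levels are CPM, counts scaled to an equal library total, after TMM scaling.

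The RefSeq sequence upstream of the transcript start is given for Trpv1 and Trpm8, the heat and cold channels, because their levels leaned in opposite directions. Each run is the 250 bases before the start in build GRCm38.p6, at chr11:73233899-73234148 on the plus strand for Trpv1 and chr1:88306485-88306734 on the plus strand for Trpm8. Capitals mark the motifs found.
Trpv1: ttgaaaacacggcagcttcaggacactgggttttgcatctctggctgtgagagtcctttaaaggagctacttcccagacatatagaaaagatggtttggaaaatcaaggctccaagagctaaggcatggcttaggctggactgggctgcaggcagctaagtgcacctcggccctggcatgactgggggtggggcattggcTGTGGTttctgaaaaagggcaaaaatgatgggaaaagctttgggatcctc
Trpm8: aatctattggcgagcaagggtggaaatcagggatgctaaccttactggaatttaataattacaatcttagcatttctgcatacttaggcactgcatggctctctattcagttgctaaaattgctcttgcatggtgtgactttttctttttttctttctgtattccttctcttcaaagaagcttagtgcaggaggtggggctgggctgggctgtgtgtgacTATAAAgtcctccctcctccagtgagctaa
3 motifs were searched on both strands, with no overlap between their matches. The TATA box, TATAAA, was found in the Trpm8 run, where it begins 30 bases before the start, and not in the Trpv1 run. The core letters bound by RUNX factors, TGTGGT, were found in the Trpv1 run, where they begin 50 bases before the start, and not in the Trpm8 run. The AP-1 letters, TGANTCA, were in neither. Of 32851 upstream runs of that length, 12.4% held the TATA box, 14.0% the RUNX letters and 6.75% the AP-1 letters. These are matches of letters, not measured binding.

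The pools held 51.7 to 87.4 M gene counts, and the sparse members Trpv4 and Trpc5 had the fewest of them. The 8 neuron markers were present in every pool, with summed levels of 7760 to 8000 CPM in stress pools and 8090 to 8280 CPM in control pools. Only Tubb3 did not overlap, at 1890, 1960 and 1830 CPM in stress pools and 2040, 2250 and 2140 CPM in control pools. Of the 8, 4 had positive and 4 negative log2 fold changes. Skeletal muscle transcripts (5 markers) summed to 2050 CPM in control pool 3 and to 12.5 to 39.7 CPM in the other 5 pools. Central nervous system transcripts (6 markers) summed to 46.5, 260 and 83.4 CPM in stress pools 1 to 3 and to 40, 224 and 184 CPM in control pools 1 to 3. Neutrophil and marrow transcripts (6 markers) summed to 42.6, 207 and 390 CPM in stress pools and to 133, 172 and 287 CPM in control pools.

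Per kilobase of the longest coding transcript in GENCODE M21, Trpv1 was the most abundant of the 9 channels and of all 28 TRP superfamily genes examined, at a mean of 47.6 CPM per kb over the 6 pools. Outside the 9, the lysosomal channel Mcoln1 stood at 28.7 CPM per kb. Trpv2 ranged from 25.2 to 27.4 CPM per kb and Trpa1 from 17.8 to 22.6, so the leading members, Trpv1, Trpv2 and Trpa1, held ranks 1 to 3 in every pool. Trpm8 (8.48 to 10.5 CPM per kb) and Trpm4 (9.22 to 10) overlapped and swapped places between pools. Trpm3 (5.96 to 6.56 CPM per kb) and Trpm2 (5.16 to 6.09) overlapped too, with Trpm2 ahead in stress pool 2 alone. Trpv4 (0.794 to 1.03 CPM per kb) and Trpc5 (0.132 to 0.41) were ranks 8 and 9 in every pool.

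**Figure D1:**
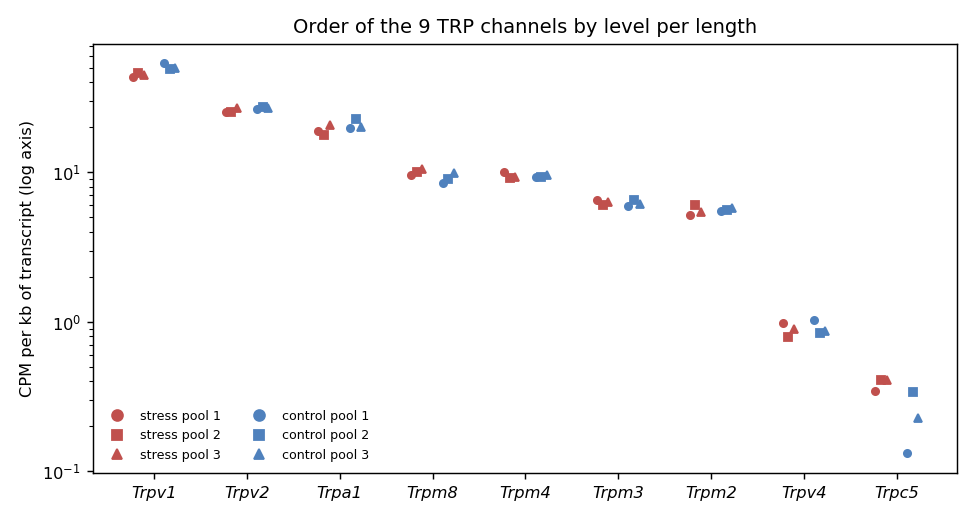
CPM per kb of transcript on a log axis for the 9 channels, with 1 point for each of the 3 prenatal stress pools (left of each name) and the 3 control pools (right). Trpv1 is highest at 43.4 to 53.4 CPM per kb, Trpm8 overlaps Trpm4 and Trpm3 overlaps Trpm2, and Trpc5 is lowest at 0.132 to 0.41.

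Trpv1, the heat and capsaicin channel, stood at 146, 155 and 149 CPM in stress pools 1 to 3 and at 179, 164 and 168 CPM in control pools 1 to 3. All 3 stress pools were below all 3 control pools, as was the case for 8.76% of all genes. The means were 150 ± 4.45 CPM in stress pools and 170 ± 8.18 CPM in control pools (SD, n = 3 each), a log2 fold change of -0.19 ± 0.04 SE with a 95% interval of -0.29 to -0.08. Its unadjusted p of 0.00337 ranked 243rd among the genes tested, and its edgeR adjusted p was 0.273. The DESeq2 Wald test gave the same log2 fold change of -0.19 and an adjusted p of 0.00855, in a run that called 330 genes in place of 26. In bulk ganglia, fewer cells of a type and less RNA per cell cannot be told apart.

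Markers of the peptidergic nociceptors, the neuron class in which TRPV1 is abundant, had negative values for 5 of 5 genes, with a median log2 fold change of -0.17. By edgeR's test 0 of them passed, and 3 had an unadjusted p under 0.05 in the lower direction, against 5.11% of all genes. DESeq2 called 1 lower, against 172 of 20146 genes. The summed level of the 5 markers was 1730, 1780 and 1750 CPM in stress pools and 1920, 2130 and 1930 CPM in control pools, with no overlap. Calca, the precursor of the peptide CGRP, was the most abundant of them at 1090 ± 12.3 CPM in stress pools and 1280 ± 115 CPM in control pools (log2 fold change -0.22 ± 0.06 SE, edgeR adjusted p = 0.322). Tac1, the substance P precursor, was at 196 ± 12 CPM in stress pools and 220 ± 5.39 CPM in control pools (-0.17 ± 0.05, adjusted p = 0.337).
Satellite glia sheathe the cell bodies of sensory neurons, and their markers had negative values for 6 of 6 genes, with a median log2 fold change of -0.20. Their summed level was 2380, 2350 and 2250 CPM in stress pools and 2550, 2730 and 2560 CPM in control pools, with no overlap. By edgeR's test 0 of the 6 passed, and 4 had an unadjusted p under 0.05 in the lower direction, against 5.11% of all genes. DESeq2 called 4 lower, against 172 of 20146 genes. The part of these marker levels in the Trpv1 values was not tested.
Set against the 5 peptidergic markers, Trpv1 was level. It had 84.2, 87 and 85.1 counts per 1000 peptidergic marker counts in stress pools and 93.5, 76.8 and 87 in control pools, and the groups overlapped (log2 ratio of means -0.01). Set against the 8 markers of all neurons, it had 18.2, 19.4 and 19.2 counts per 1000 in stress pools and 22.1, 19.8 and 20.8 in control pools, without overlap (log2 ratio of means -0.14). Both ratios were added after the data were seen and carry no test. The sum of the 8 neuron markers includes Tubb3, which was lower in all stress pools.

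Trpa1, the irritant channel, stood at 80.2, 75.9 and 87.8 CPM in stress pools and at 84.5, 96.3 and 86 CPM in control pools. The groups overlapped, since stress pool 3 was above control pools 1 and 3. The log2 fold change was -0.13 ± 0.07 SE with an interval of -0.29 to 0.03 (edgeR adjusted p = 0.528). Control pool 2, the highest, carried much of the difference: without it the value was -0.07. Per 1000 peptidergic marker counts, Trpa1 had 46.3, 42.7 and 50.1 in stress pools and 44.1, 45.3 and 44.5 in control pools, which overlapped.

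Trpm8, the cold and menthol channel, leaned the other way. It stood at 39.9, 41.5 and 43.5 CPM in stress pools and at 35.2, 37.6 and 41.3 CPM in control pools, where control pool 3 lay above stress pool 1. The means were 41.6 ± 1.78 CPM in stress pools and 38 ± 3.08 CPM in control pools (SD, n = 3 each), a log2 fold change of 0.13 ± 0.06 SE with an interval of -0.02 to 0.28 (edgeR adjusted p = 0.495). Within each of the 3 pairs of same-numbered pools the stress pool was the higher one, and with the replicate block the value was 0.13 ± 0.04 SE (unadjusted p = 0.0146, edgeR adjusted p = 0.32). Leaving out control pool 1, the lowest pool, gave 0.08. Without control pool 3, the highest control pool and the one with muscle transcripts, the value was 0.19. Against the 5 peptidergic markers Trpm8 had 23.1, 23.3 and 24.8 counts per 1000 in stress pools and 18.3, 17.7 and 21.3 in control pools, and these did not overlap (log2 ratio of means 0.31). On that scale Trpv2, Trpm3, Trpm4 and Trpc5 were also higher in all stress pools (log2 ratios of means 0.13, 0.21, 0.2 and 0.94). Trpv1, Trpv4, Trpa1 and Trpm2 overlapped. The summed level of those 5 markers was itself lower in all stress pools (1730, 1780 and 1750 CPM, against 1920, 2130 and 1930 CPM). As CPM, Trpm3 and Trpm4 had log2 fold changes of 0.02 and 0.01. The share of all genes apart on that scale was not computed. Set against the 8 markers of all neurons, Trpm8 had 4.99, 5.21 and 5.6 counts per 1000 in stress pools and 4.33, 4.55 and 5.1 in control pools. There the groups overlapped (log2 ratio of means 0.18, with Tubb3 in the sum as for Trpv1).

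**Figure D2:**
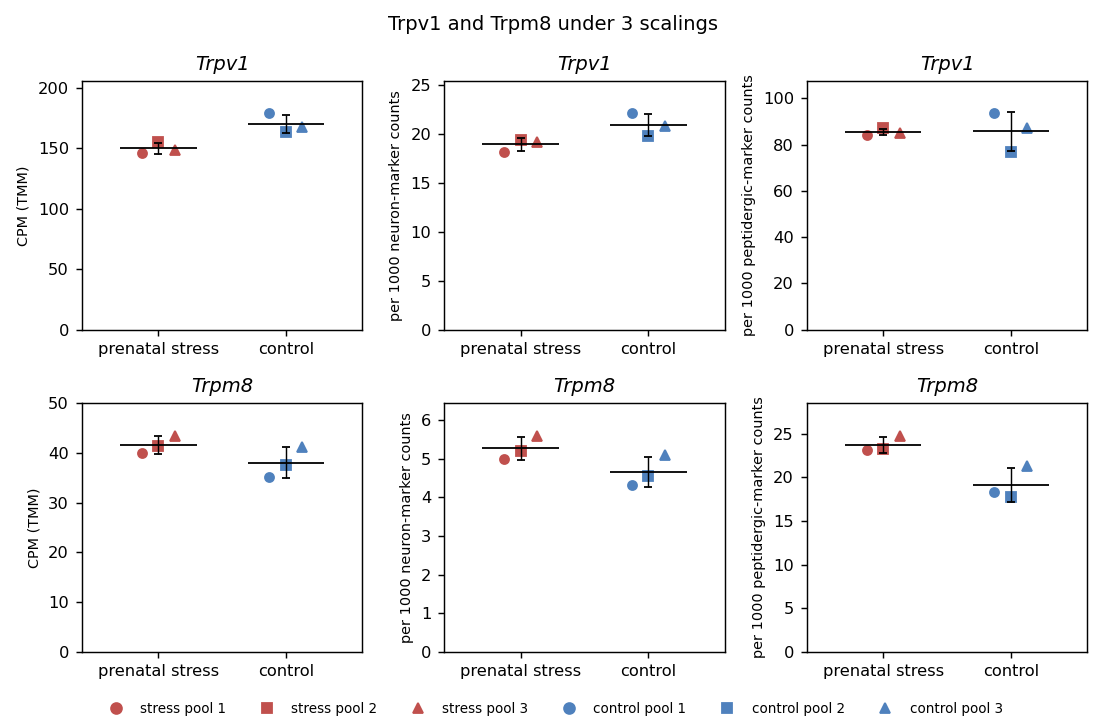
Trpv1 (top) and Trpm8 (bottom) in each of the 3 prenatal stress and 3 control pools as CPM, as counts per 1000 summed counts of 8 neuron markers, and as counts per 1000 summed counts of 5 peptidergic nociceptor markers, with the line and bar giving mean and SD. Trpv1 in stress pools lies below control pools on the first pair of scales and overlaps on the third (84.2 to 87 in stress pools, 76.8 to 93.5 in control pools). Trpm8 overlaps on the first pair of scales and is higher in all stress pools on the third. The summed level of those 5 markers is itself lower in all stress pools.

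The balance of the heat, irritant and cold channels does not depend on how libraries are scaled. Of the counts of Trpv1, Trpa1 and Trpm8 together (14476 to 25752 per pool), Trpv1 made up 54.8%, 56.9% and 53.2% in stress pools and 60.0%, 55.0% and 56.9% in control pools. These groups overlapped, and the difference of the means was -2.34 percentage points (two-sided exact permutation p = 0.2 over 6 pools). Exact binomial 95% intervals, which cover counting error only, spanned 54.1% to 55.5% in stress pool 1 and 54.3% to 55.7% in control pool 2. They spanned 56.1% to 57.6% in stress pool 2 and 56.3% to 57.5% in control pool 3. For stress pool 3, the lowest, the interval was 52.4% to 54%, and for control pool 1, the highest, 59.3% to 60.7%. Without control pool 1 the difference was -0.998 percentage points, and without stress pool 3 it was -1.46.
Trpm8 made up 15.0%, 15.2% and 15.5% in stress pools and 11.8%, 12.6% and 14.0% in control pools. All 3 stress pools were above all 3 control pools, by 2.47 percentage points between the means, with an exact permutation p of 0.1, the smallest that 3 pools against 3 can give, and 0.3 after Benjamini-Hochberg adjustment over the 3 channels. Taken as 3 pairs the share was higher in stress in all 3, with an exact permutation p of 0.25, the smallest that 3 pairs can give. A share depends on all 3 channels. As CPM, Trpv1, the largest part, was lower in all stress pools and Trpm8 overlapped. Trpa1 averaged 29.8% ± 1.74 in stress pools and 29.9% ± 2.18 in control pools (SD, n = 3 each; exact permutation p = 0.9).

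**Figure D3:**
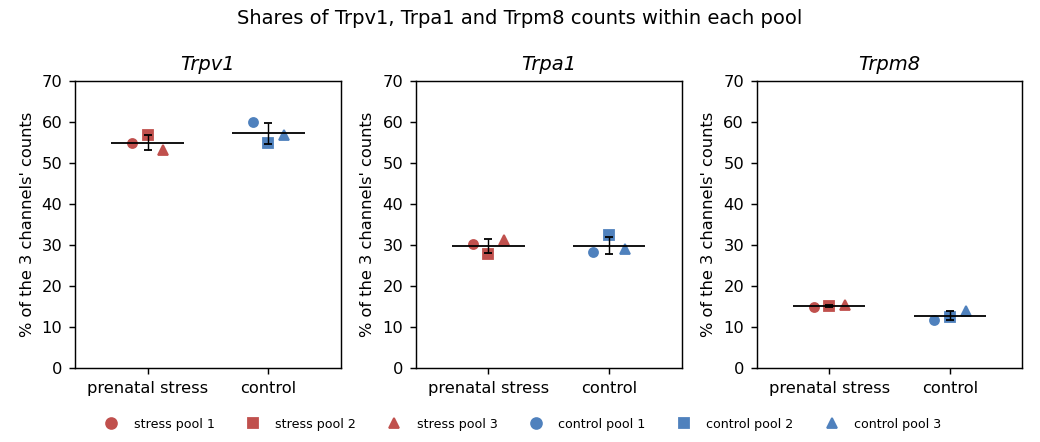
Share of each channel in the summed counts of Trpv1, Trpa1 and Trpm8 in each pool, in percent, with prenatal stress left of control and the line and bar giving mean and SD of 3 pools. The Trpm8 share is 15.0% to 15.5% in stress pools and 11.8% to 14.0% in control pools, while the shares of Trpv1 and Trpa1 overlap.

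Of the other heat-related members, Trpv2, a relative of TRPV1 found in larger sensory neurons and macrophages, stood at 73.4, 73.5 and 78.8 CPM in stress pools and at 76.8, 79.8 and 78.2 CPM in control pools. The groups overlapped through stress pool 3, and the log2 fold change was -0.06 ± 0.04 SE (interval -0.15 to 0.03). Trpm3, the pregnenolone sulfate channel, stood at 80.4, 74.2 and 78.1 CPM in stress pools and at 73.4, 80.7 and 75.4 CPM in control pools. Its log2 fold change was 0.02 ± 0.05 SE with an interval of -0.09 to 0.13, and it changed sign to -0.08 with a correction for GC content and length. An annotated antisense gene, Gm27151, shares 277 exonic bases with Trpm3 and had 67 to 98 counts in stress pools and 105 to 129 counts in control pools, against 4032 to 6570 for Trpm3 itself. The strand setting of the counting is not given in the sources used here.

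Trpm2, a channel opened by ADP-ribose and oxidative stress and known from myeloid cells as well as neurons, stood at 37.5, 44.3 and 39.3 CPM in stress pools and at 40.2, 40.9 and 42 CPM in control pools. Stress pools held both the lowest and the highest value. The 6 macrophage markers summed to 49.8, 67.6 and 62.6 CPM in stress pools and to 60.6, 56.8 and 61.6 CPM in control pools, so stress pool 1 was lowest and stress pool 2 highest for both, and the part of these cells in the Trpm2 values was not tested. The log2 fold change of Trpm2 was -0.02 ± 0.06 SE (interval -0.17 to 0.12). Trpm4, a calcium-activated channel that passes sodium and potassium but hardly any calcium, stood at 42.3, 39 and 39.4 CPM in stress pools and at 39.4, 39.4 and 40.8 CPM in control pools. It had the narrowest spread of the 9 channels, at an SD of 0.0452 on the log2 scale over the 6 pools, and a log2 fold change of 0.01 ± 0.04 SE (interval -0.08 to 0.11).

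The sparse members were Trpv4, an osmotically and mechanically responsive channel, and Trpc5, a channel that has been tied to cold sensing in teeth and skin. Trpv4 had 245, 169 and 149 counts in stress pools and 231, 177 and 243 counts in control pools, or 2.87 ± 0.3 CPM in stress pools and 2.95 ± 0.332 CPM in control pools (SD, n = 3 each). Its log2 fold change was -0.04 ± 0.13 SE, and the interval of -0.35 to 0.28 leaves room for a modest difference in either direction.
Trpc5 had 111, 112 and 88 counts in stress pools and 38, 92 and 82 counts in control pools. As levels these were 1.43, 1.70 and 1.70 CPM in stress pools and 0.548, 1.42 and 0.941 CPM in control pools. The groups did not overlap, as was the case in this direction for 9.33% of all genes, but stress pool 1 and control pool 2 were almost level. The log2 fold change was 0.74 ± 0.31 SE (interval 0 to 1.47, unadjusted p = 0.0498, edgeR adjusted p = 0.449). It was 0.46 without control pool 1 and 1.10 without control pool 2 (edgeR adjusted p = 0.618 and 0.634). With the replicate block it was 0.81 ± 0.23 SE (unadjusted p = 0.0125, edgeR adjusted p = 0.309). The central nervous system markers, which can enter with spinal roots, summed to 46.5, 260 and 83.4 CPM in stress pools and to 40, 224 and 184 CPM in control pools. Control pool 1 was lowest for both these markers and Trpc5. Stress pool 1 was nearly as low for the markers but not for Trpc5. Control pool 3 was above stress pool 3 for the markers and below it for Trpc5. The part of these markers in the Trpc5 values was not tested. The gene Trpc5os on the opposite strand, which shares no exonic base with Trpc5, is a separate symbol in the tables.

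**Figure D4:**
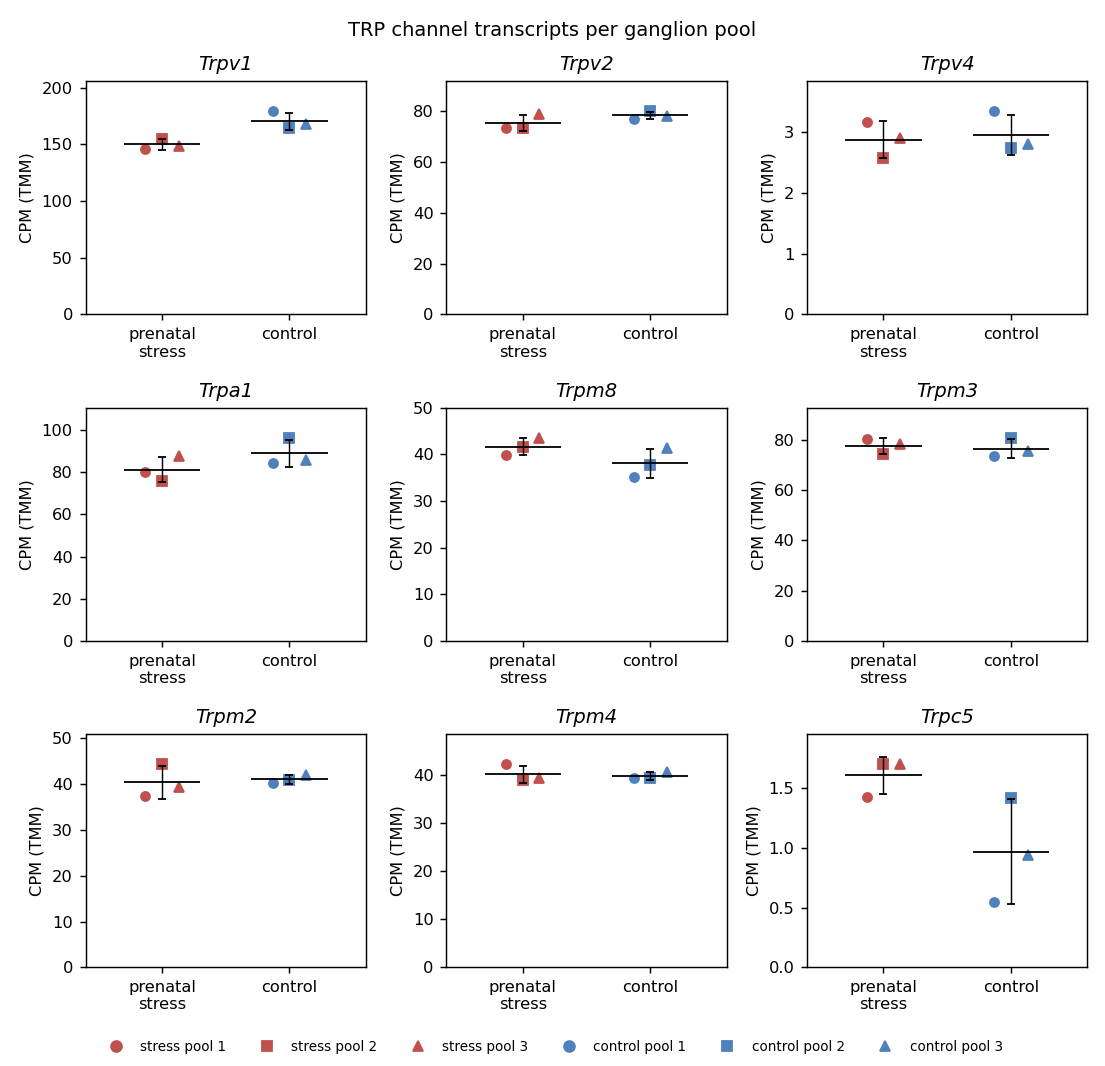
CPM after TMM scaling of each of the 9 channels in the 3 prenatal stress pools (left) and 3 control pools (right), each panel from 0, with the line and bar giving mean and SD. The groups are apart for Trpv1 (146 to 155 CPM in stress pools, 164 to 179 CPM in control pools) and, narrowly, for Trpc5, and overlap for the other 7.

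The other 19 TRP superfamily genes were looked at beside the 9. Of these, 13 passed the filter and 0 passed edgeR's test, nor did any of the 11 to which DESeq2 gave an adjusted p (Mcoln2 and Pkd2l1 got none), while 8 of the 13 had positive values and the median log2 fold change was 0.04. The 6 that did not pass the filter had means of at most 0.12 CPM: the taste channel Trpm5, the retinal channel Trpm1, the epithelial calcium channels Trpv5 and Trpv6, the lysosomal channel Mcoln3, and Trpc2, which had no counts in any pool. By unadjusted p under 0.05, 4 of the 13 counted, against 11.1% of all genes, and the genes named next were chosen by that p. Trpm7, a channel fused to a kinase that passes magnesium, stood at 77, 72.3 and 80 CPM in stress pools and at 70, 70.3 and 71.3 CPM in control pools (log2 fold change 0.12 ± 0.04 SE, edgeR adjusted p = 0.398). With the correction for GC content and length it was 0.05 (unadjusted p = 0.0897), and with that correction and the replicate block 0.05 (unadjusted p = 0.114).
A further pair was sparse and lower. Mcoln2, an endolysosomal channel, averaged 0.723 ± 0.0963 CPM in stress pools and 1.13 ± 0.275 CPM in control pools (-0.65 ± 0.22, edgeR adjusted p = 0.378). Pkd2l1, a marker of neurons that contact the cerebrospinal fluid in the spinal cord, stood at 0.142, 0.501 and 0.232 CPM in stress pools and at 0.331, 1.76 and 0.643 CPM in control pools (-1.63 ± 0.69, adjusted p = 0.446). Its highest pool in each group, pool 2, was also the pool with the most central nervous system transcripts in that group (260 CPM in stress pool 2 and 224 CPM in control pool 2), and their part in it was not tested. Without control pool 2 its log2 fold change was -0.76. With the replicate block it was -1.56 ± 0.22 SE (unadjusted p = 0.000341, edgeR adjusted p = 0.118).

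Genes known to tune these channels were taken as a list of 27: scaffolds and accessory proteins, inflammatory receptors, and the phospholipase C and kinase route that sensitises or desensitises TRPV1, TRPA1 and TRPM8. Of these, 26 were tested and 0 passed edgeR's test, with 12 positive values, 14 negative values and a median log2 fold change of -0.01. An unadjusted p under 0.05 was reached by 5 in the higher and 3 in the lower direction, against 6.01% and 5.11% of all genes.
Among receptors and accessory proteins, the artemin receptor chain Gfra3, which marks many peptidergic TRPV1 neurons, stood at 37.9, 41.8 and 37.6 CPM in stress pools and at 43.9, 46 and 44.6 CPM in control pools (-0.20 ± 0.05 SE, edgeR adjusted p = 0.286). The prostacyclin receptor Ptgir stood at 69.2, 63.9 and 65.8 CPM in stress pools and at 73.7, 78 and 73.9 CPM in control pools (-0.18 ± 0.04, adjusted p = 0.273). Tmem100, a membrane protein that loosens the coupling of TRPA1 to TRPV1, averaged 44.2 ± 0.461 CPM in stress pools and 48.3 ± 1.77 CPM in control pools (-0.13 ± 0.04, adjusted p = 0.328). Pirt, a phosphoinositide-binding protein that enhances TRPV1 and TRPM8 currents, was the most abundant partner of this kind at 1180 ± 26.8 CPM in stress pools and 1220 ± 45.9 CPM in control pools (-0.05 ± 0.04, adjusted p = 0.651).

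Genes higher by unadjusted p included signalling genes. Plcb3, a phospholipase C that breaks down the membrane lipid on which TRP channels depend, stood at 669, 702 and 677 CPM in stress pools and at 587, 629 and 602 CPM in control pools (0.17 ± 0.04 SE, edgeR adjusted p = 0.25). Prkce, the protein kinase C form that phosphorylates TRPV1, stood at 340, 342 and 353 CPM in stress pools and at 318, 322 and 315 CPM in control pools (0.11 ± 0.03, adjusted p = 0.29). The prostaglandin E receptor Ptger1 (0.14 ± 0.06) and Snapin, a vesicle protein that binds TRPV1 (0.10 ± 0.03), were others. Ptger1 was 0.09 without stress pool 1 (unadjusted p = 0.171), and with the replicate block it was 0.14 at an unadjusted p of 0.0692. The DESeq2 Wald test called Gfra3 and Ptgir lower and Plcb3 and Prkce higher, at adjusted p of 0.0361, 0.0198, 0.00237 and 0.0409. That run called 330 of 20146 genes. With the correction for GC content and length in the edgeR fit, Prkce was 0.07 (unadjusted p = 0.0246).

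**Figure D5:**
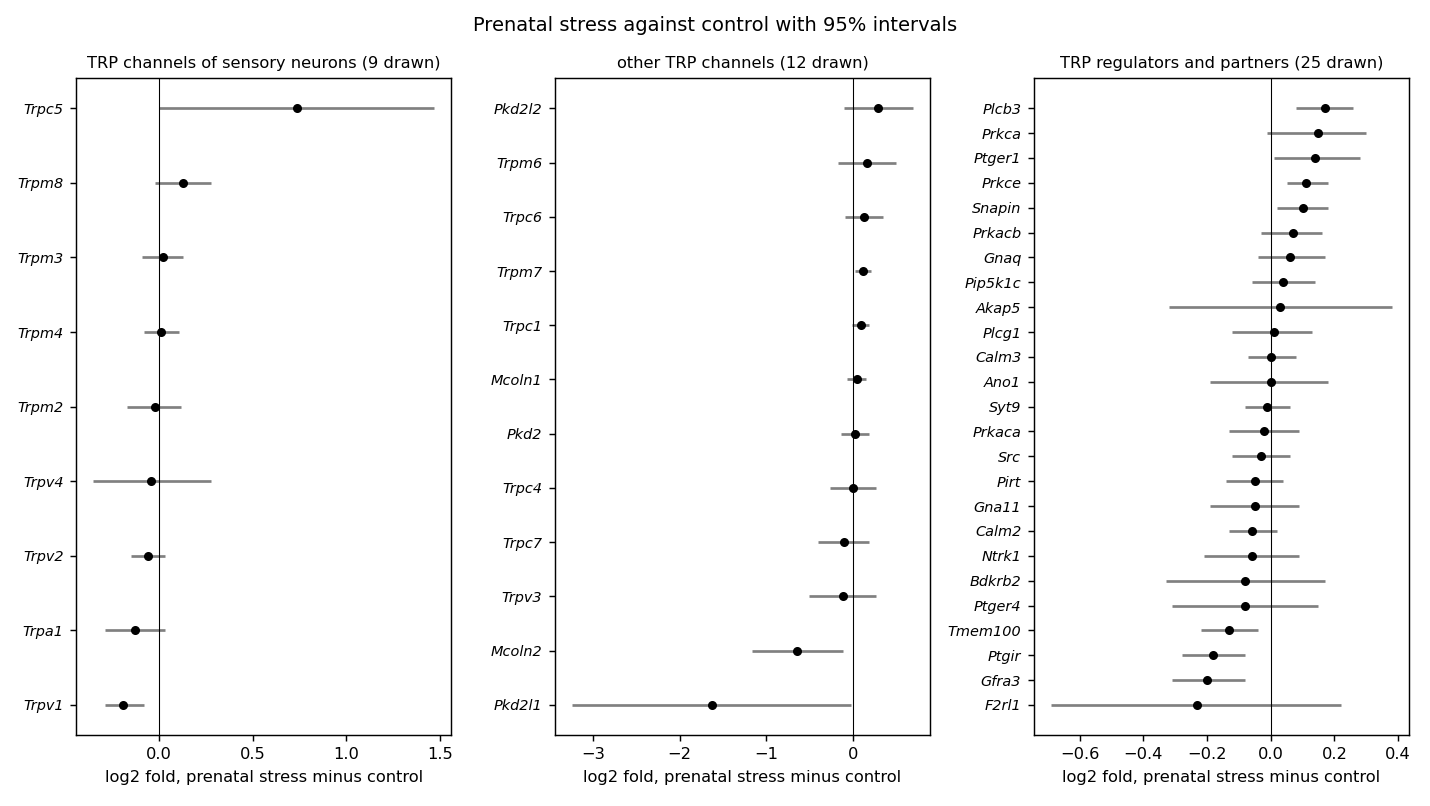
Log2 fold change of prenatal stress against control (points) with 95% intervals (bars) for the 9 channels, 12 of the 13 other TRP superfamily genes tested and 25 of the 26 regulators and partners. The panels have different horizontal ranges. The interval of Trpv1 is -0.29 to -0.08, those of Trpc5 (0 to 1.47) and Pkd2l1 (-3.24 to -0.02) are wide, and 0 genes passed the adjusted test.

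Markers of other neuron classes gave the setting of these values. Nonpeptidergic nociceptors, which in adult mice hold little Trpv1, had positive values for 5 of 5 markers (median log2 fold change 0.18), with sums of 751, 704 and 823 CPM in stress pools and 686, 670 and 670 CPM in control pools. C low-threshold mechanoreceptors had positive values for 4 of 4 (median 0.22), with sums of 308, 270 and 309 CPM in stress pools and 269, 229 and 251 CPM in control pools. Pruriceptor markers, from neurons that carry itch, had 3 of 4 negative values and a median of 0, and their sums overlapped (73.2 to 89.5 CPM in stress pools, 78.7 to 83.5 CPM in control pools). Markers of myelinated sensory neurons had 2 of 5 positive values and a median of -0.08. Their sums overlapped too (2470 to 2690 CPM in stress pools, 2600 to 2780 CPM in control pools). By edgeR's test 0 of these markers passed. An unadjusted p under 0.05 in the higher direction was reached by 3 nonpeptidergic, 2 C low-threshold and 0 pruriceptor markers, against 6.01% of all genes. It was reached by 1 myelinated marker. In the same order, DESeq2 called 1, 2, 0 and 1 higher, against 158 of 20146 genes. The part of these neuron classes in the Trpv1 and Trpm8 values was not tested.

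The genes whose levels ran most like each of the 3 temperature and irritant channels were ranked by Pearson correlation of log2 CPM over the 6 pools among 10128 genes of at least 10 CPM. With 6 points and so many genes, values this near 1 describe these libraries only, and genes of a pool share its depth and cell makeup. For Trpv1 they were Irf3, an interferon regulatory factor (r = 0.984), the sugar transporter gene Slc35a2 (0.982) and Pgd, an enzyme of the pentose phosphate pathway (0.98). For Trpa1 they were the transcription factor Zbtb33 (0.992), Taf1d, a part of the RNA polymerase I machinery (0.989), and the adhesion gene Nectin3 (0.988). For Trpm8 they were Ift172 of the ciliary transport machinery (0.994), the centrosomal gene Pcnt (0.992) and the bicarbonate transporter Slc4a7 (0.989). In the comparison of stress with control their edgeR adjusted p values ran from 0.354 to 0.684.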

How the data were processed

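Libraries were poly-A selected and stranded, from 6 pools of dorsal root ganglia. The authors deposited raw counts of reads per gene symbol, 1 table per library. The submitters' processing notes name STAR 2.4, HTSeq 0.9.1 and the builds GRCm39 and mm10, without roles. Rows that name no gene (15.3% to 16.2% of reads counted per table) were left out. The test was that of edgeR 4.0.16, run in R 4.3.3 (TMM, filterByExpr with minimum count 10, quasi-likelihood F test, Benjamini-Hochberg adjustment over 20146 genes), and the code was tested on simulated data. SE is the size of a log2 fold change divided by the square root of F. Members, lists and tests were chosen with earlier results of these data known. Named genes were all members, list genes of unadjusted p under 0.05 or among the 3 smallest p, and the 3 genes most like Trpv1, Trpa1 and Trpm8; Pirt, Mcoln1, the genes under the filter and the markers are outside that rule. The sample labels give replicate numbers but no pairing. Deviations from the group mean correlated at 0.40, 0.22 and 0.17 between same-numbered pools over 15240 genes, and at -0.33 to 0.14 between the others. Taking deviations within each group pushes the latter down. The replicate block and the pairs rest on these same data, so they are given as an alternative. Libraries differed beyond sampling noise in every pair (chi-square per degree of freedom 10.98 to 36.41). Upstream sequences are from RefSeq (GRCm38.p6); 7 of 9 members matched. Transcript lengths and GC content are from GENCODE M21 (found for 95.2% of genes tested). DESeq2 1.42.0 and other settings were run as alternatives. A few genes that the rule takes are not reported here.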

Additional observations from a re-analysis of the deposited data

How the results depend on the processing

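Over 15 alternatives the number of channels called among the 9 stayed at 0, save 1 with the DESeq2 Wald test (Trpv1, adjusted p = 0.00855), which also called 4 regulators and 330 genes in all. Trpv1 kept its sign in all 15, at -0.22 to -0.15, with adjusted p from 0.00855 to 0.625, and Trpa1 (-0.19 to -0.07), Trpv2 (-0.10 to -0.04), Trpm8 (0.08 to 0.19) and Trpc5 (0.46 to 1.10) kept theirs. Over all genes 49 passed without the low-count filter, 43 with the GC and length correction and 48 with that correction and the replicate block. With the replicate block alone 22 genes passed, and it changed no call of a channel (Trpv1 -0.18, adjusted p = 0.298). Leaving out 1 pool gave 2 to 14 genes (4 and 10 and 10 without stress pools 1 to 3; 14, 2 and 13 without control pools 1 to 3), with fewer pools in each fit. The Trpv1 share difference was -3.51 to -0.998 percentage points without 1 pool, and with the replicate block it was -2.34 (exact permutation p = 0.5).
Near 0 the sign was not fixed. Trpm3 was -0.08 with the GC and length correction, with or without the replicate block, and -0.01 without stress pool 1 or control pool 1 (-0.01 to 0.05 without 1 pool). Trpm4 was 0 with that correction and the block and -0.03 without stress pool 1, Trpm2 was 0.02 without stress pool 1, and Trpv4 was 0.03 without stress pool 2 and 0.06 without control pool 1 (-0.12 to 0.06 without 1 pool). The cause was not tested. Mcoln2 and Pkd2l1 did not reach 1 CPM in 3 libraries and have no value under that filter.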
